A study of Arabidopsis thaliana with 6 samples.

Results

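Cytochrome P450 genes were selected from the authors' deposited table of genes with RGA-GFP peaks by a description that contains the phrase "cytochrome P450" in any case. The 10 P450 genes of brassinosteroid and gibberellin metabolism that the rule names were left out. This gave 88 of the 13426 genes in the table, and the descriptions of all 88 also name the P450 protein domain. A gene entered the table through RGA-GFP peaks, so the RGA-GFP values of the 88 genes were part of how they were chosen and are given as a description, without a test.

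Cytochrome P450 enzymes are heme proteins that insert oxygen into small molecules. In plants they form one of the largest enzyme families, divided by sequence into numbered families and lettered subfamilies, and many subfamilies sit in tandem arrays of close copies. They act in the synthesis or breakdown of hormones, sterols, carotenoids, cuticle and pollen wall lipids, and many defence compounds. RGA is a DELLA protein, a nuclear repressor of gibberellin responses. Gibberellin leads to its degradation, and DELLA proteins reach chromatin largely through the transcription factors they bind.

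RGA was located on chromatin by chromatin immunoprecipitation and sequencing (ChIP-seq) with anti-GFP beads in inflorescence apices of Arabidopsis thaliana, accession Landsberg erecta. The RGA-GFP plants carried RGAp:GFP-rga-delta17, in which green fluorescent protein (GFP) is fused to a gibberellin-insensitive RGA under the promoter of RGA. Wild type (WT) plants, of the same accession and without GFP, measured what the beads pull down without the fusion. There were 3 biological replicates of either genotype, each from many apices fixed after harvest. Whether the RGA-GFP plants kept their own RGA gene, and how many lines were used, is not given in the labels. Apices mix many cell types, so a low enrichment in all cells and a strong one in few cells cannot be told apart.

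The RGA-GFP libraries kept 14644122, 15704296 and 16745139 tags after duplicate removal, and the WT libraries kept 10014730, 8808462 and 3999159. Duplicates made up 39.8%, 32.4% and 39.6% of the RGA-GFP tags, against 63.4%, 34.9% and 62.1% of the WT tags. In the window of RGA itself the strongest peak had a fold of 3.44, 3.29 and 3.32 in the RGA-GFP lists. It had a fold of 2.90 in WT 1 and 2.92 in WT 3, and WT 2 had no peak there. That sequence is also part of the transgene, so it is a weak check of the labels. The WT libraries were shallower, and the part of depth and duplicates in the results below was not tested.

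Peak values are those of the authors' lists. In the list of a single library, the fold of a peak is the summit pileup over the library's own local background. In the pooled list, it is the summit pileup of the combined RGA-GFP libraries over the local background of the combined WT libraries. The 2 folds are different ratios. A gene had a pooled peak where the authors' deposited table gives a pooled fold above 0. Gene windows, as the authors drew them, run up to 3000 bp upstream and 1500 bp downstream of the coding sequence, and coordinates are of the TAIR10 build. Whether a peak lies in an exon, intron or untranslated region was not analysed here.

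At the replicate threshold of a −log10 q of at least 3, RGA-GFP peaks lay in the windows of 72, 76 and 62 of the 88 P450 genes in RGA-GFP 1, 2 and 3. WT peaks lay in the windows of 7, 0 and 2 of them in WT 1, 2 and 3. The RGA-GFP libraries averaged 70 ± 7.21 genes and the WT libraries 3 ± 3.61 genes (SD, n = 3 each), and the groups did not overlap. Genes entered the table by such RGA-GFP peaks, so high RGA-GFP counts follow from the choice of genes and are no result about them. Over all genes of the table, the same shares were 82.6%, 88.1% and 76.6% in the RGA-GFP libraries. They were 6.73%, 0.991% and 3.17% in the WT libraries. The P450 genes stood at 81.8%, 86.4% and 70.5%, against 7.95%, 0% and 2.27% in the WT libraries. The RGA-GFP shares were thus slightly below those of the table in each library, and of the WT shares WT 1 was above and WT 2 and 3 were below.

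**Figure D1:**
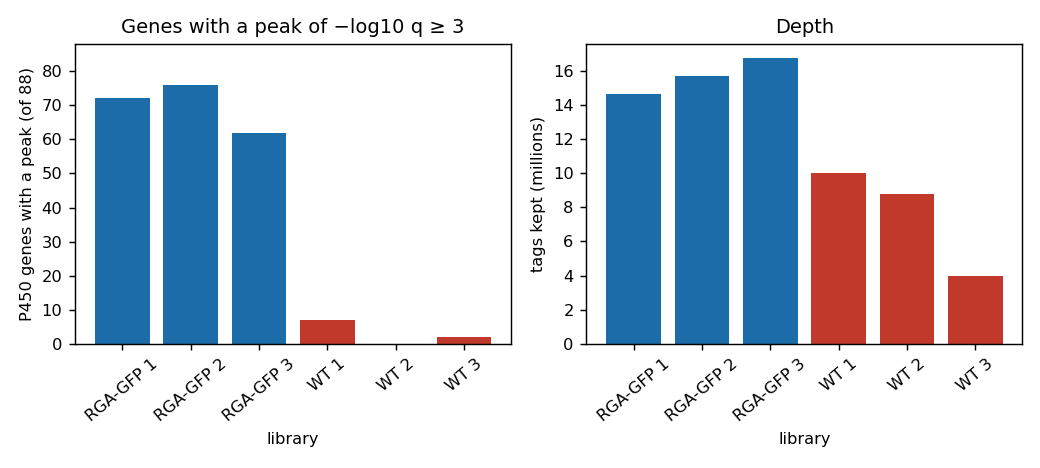
Number of the 88 P450 genes with a peak in the window (left) and tags kept after duplicate removal (right, in units of 1e6), one bar per library, with RGA-GFP in blue and WT in red. RGA-GFP 3 had the fewest genes of its group, 62, although it kept the most tags, and WT 1 with 7 genes was the deepest WT library.

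Of the 88 P450 genes, 50 (56.8%) had a pooled peak, against 64.3% of all genes in the authors' deposited table. By the count of lists in that table, all 3 RGA-GFP replicates had a peak at 51 of them (58%), compared with 65.3% of all genes. A further 18 (20.5%) were in 2 lists, and 19 (21.6%) were in 1 list only, against 17.7% of all genes. A pooled peak was present at 45 of the 51 genes found in all 3 lists, at 3 of the 18 in 2 lists and at 2 of the 19 in 1 list. The median pooled fold of the 50 was 1.80, with a range of 1.39 to 2.63, against a median of 1.73 over all 8629 genes with a pooled peak. A fold of at least 2 was reached by 11 of the 50 (22%), against 17.5% of all genes with a pooled peak. The shares with a pooled peak and in all 3 lists were thus below those of the table, and the share with a fold of at least 2 was above it.

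RefSeq names 229 protein-coding P450 genes outside the 10 that were left out, in 62 subfamilies. The 88 genes are 38.4% of them, against 46.1% of all protein-coding genes with an entry in the authors' deposited table. The 50 with a pooled peak are 21.8% of the 229, against 29.7% of all protein-coding genes. With the 3 of the 229 that the table lists under another description, the shares are 39.7% with an entry and 23.1% with a pooled peak. Either way they are lower than in the genome as a whole, and no test was made. The 88 fall in 42 subfamilies, and those with a pooled peak in 28.

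A pooled peak was present at 21.8% of the 229 P450 genes, against 29.7% of all protein-coding genes. Counts per subfamily spread around that share, rest on few genes and were not tested. All 4 genes of CYP707A and all 3 of CYP709B had a pooled peak, as did 4 of 5 in CYP86A, 3 of 6 in CYP78A and 3 of 7 in CYP706A. Of these, CYP709B1 and CYP709B2 shared their strongest pooled peak. CYP706A4 and CYP706A5 also shared one, which was found in RGA-GFP 2 only. Several large subfamilies stood at the other end. CYP71B had a pooled peak at 4 of its 34 genes, CYP705A at 1 of 24, and CYP81D at 0 of 9. None of the 16 CYP71A genes and none of the 6 CYP702A genes was among the 88. CYP96A was split: 5 of its 13 genes were among the 88, and all 5 had a pooled peak. By chromosome, chromosome 3 had a pooled peak at 8 of its 24 P450 genes (33.3%), against 65.1% of all genes of the table there, and it holds most of the CYP71B genes without one. Chromosome 2 stood highest with 10 of 13 (76.9%), against 62.2%.

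**Figure D2:**
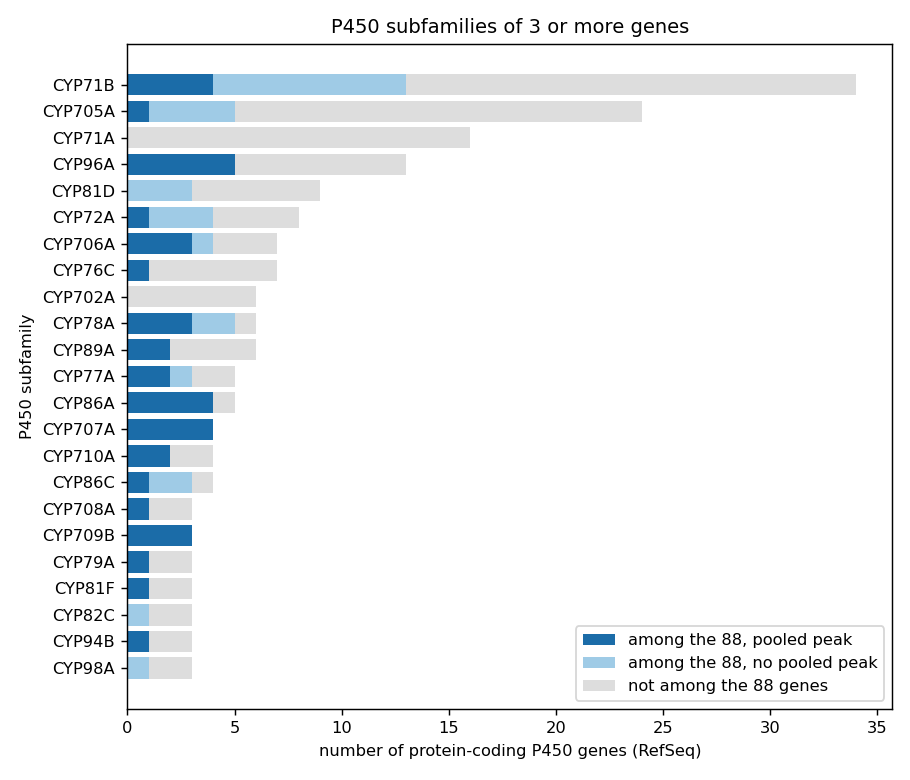
Number of protein-coding P450 genes per subfamily (horizontal axis), for subfamilies of 3 or more genes, divided into genes with a pooled peak (dark blue), genes among the 88 without one (light blue) and genes not among the 88 (grey). CYP707A and CYP709B are dark over their whole length, while CYP71B has 4 dark of 34 and CYP71A is grey throughout.

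The CYP78A subfamily, whose members promote organ, fruit and seed growth, held 3 of the 5 highest pooled folds among the 88. Fruit and seed size depend on CYP78A9, which had a fold of 3.34, 3.01 and 2.86 in RGA-GFP 1, 2 and 3, and no WT peak. Its pooled fold was 2.48, at chr3:22906138-22907452. A second pooled peak of 2.02 lay across an end of the window, with 2.88, 2.62 and 2.66 in the same lists. All 3 RGA-GFP libraries thus had both peaks. Seed growth also depends on CYP78A6 (EOD3), which had 4.20, 4.55 and 3.73 in the RGA-GFP lists and a pooled fold of 2.34 at chr2:19153579-19154273. Its mean of 4.16 ± 0.41 (SD, n = 3) was the highest of the 46 genes among the 88 whose strongest pooled peak was found in all 3 lists. No WT list had a peak in its window.

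Organ growth and leaf initiation involve CYP78A7, which had 2.95, 2.62 and 2.41 in the RGA-GFP lists and a pooled fold of 2.23. Its window also held a peak of WT 3 with a fold of 4.61 and a −log10 q of 20.8. That peak lay 1498 bp from the pooled summit, and none of the RGA-GFP lists had a peak there. Shoot organ growth is stimulated by CYP78A5 (KLUH), which had weak peaks in all 3 RGA-GFP lists, 1.77, 1.69 and 1.57, and no pooled peak. CYP78A8 had peaks of 2.03 and 2.08 in RGA-GFP 1 and 2 only, and CYP78A10 was not among the 88. In the organ growth list of 6 genes, 5 were thus among the 88 and 3 had a pooled peak (50%), against 29.7% of all protein-coding genes.

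Among P450 genes of other hormones, together with brassinosteroid and gibberellin enzymes that the rule did not name, 6 of 12 (50%) had a pooled peak, against 29.7% of all protein-coding genes. No WT peak lay in the windows of these 6, against 9.87% of all genes with a pooled peak. So few genes cannot be told apart from that share. Abscisic acid is inactivated by the 8′-hydroxylases CYP707A1 to CYP707A4, and all 4 genes had a pooled peak. CYP707A4 was the highest, with 2.97, 3.26 and 2.53 in RGA-GFP 1, 2 and 3 and a pooled fold of 1.94. That peak was also in the window of AT3G19274, and its summit lay 65 bp outside the window of CYP707A4. CYP707A1 had 2.35, 1.86 and 2.24 and a pooled fold of 1.76. CYP707A3 had 2.59, 2.32 and 2.09 and a pooled fold of 1.57, and CYP707A2 had 2.14, 1.84 and 1.74 and a pooled fold of 1.71. CYP707A2, CYP707A3 and CYP707A4 each had a second pooled peak, with folds of 1.60, 1.56 and 1.79. The second peak of CYP707A4 was also in the window of AT3G19260, and that of CYP707A2 in the window of AT2G29080. At CYP707A2 the second peak was the stronger in every RGA-GFP list, with 2.98, 2.77 and 2.60.

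Gibberellin is inactivated by CYP714A1 (ELA1), which had 4.01, 3.69 and 3.47 in the RGA-GFP lists and no WT peak. Its mean of 3.72 ± 0.28 (SD, n = 3) was the second highest among the 88, and its pooled fold was 2.18. Its tandem partner CYP714A2 was not among the 88. Strigolactones are made with CYP711A1 (MAX1), which had 2.93, 2.72 and 2.57 and a pooled fold of 2.15. A second pooled peak of 1.73 lay in its window, and both peaks were also in the window of its neighbour AT2G26160, an F-box gene. The cytokinin hydroxylases CYP735A1 and CYP735A2 were not among the 88.

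**Figure D3:**
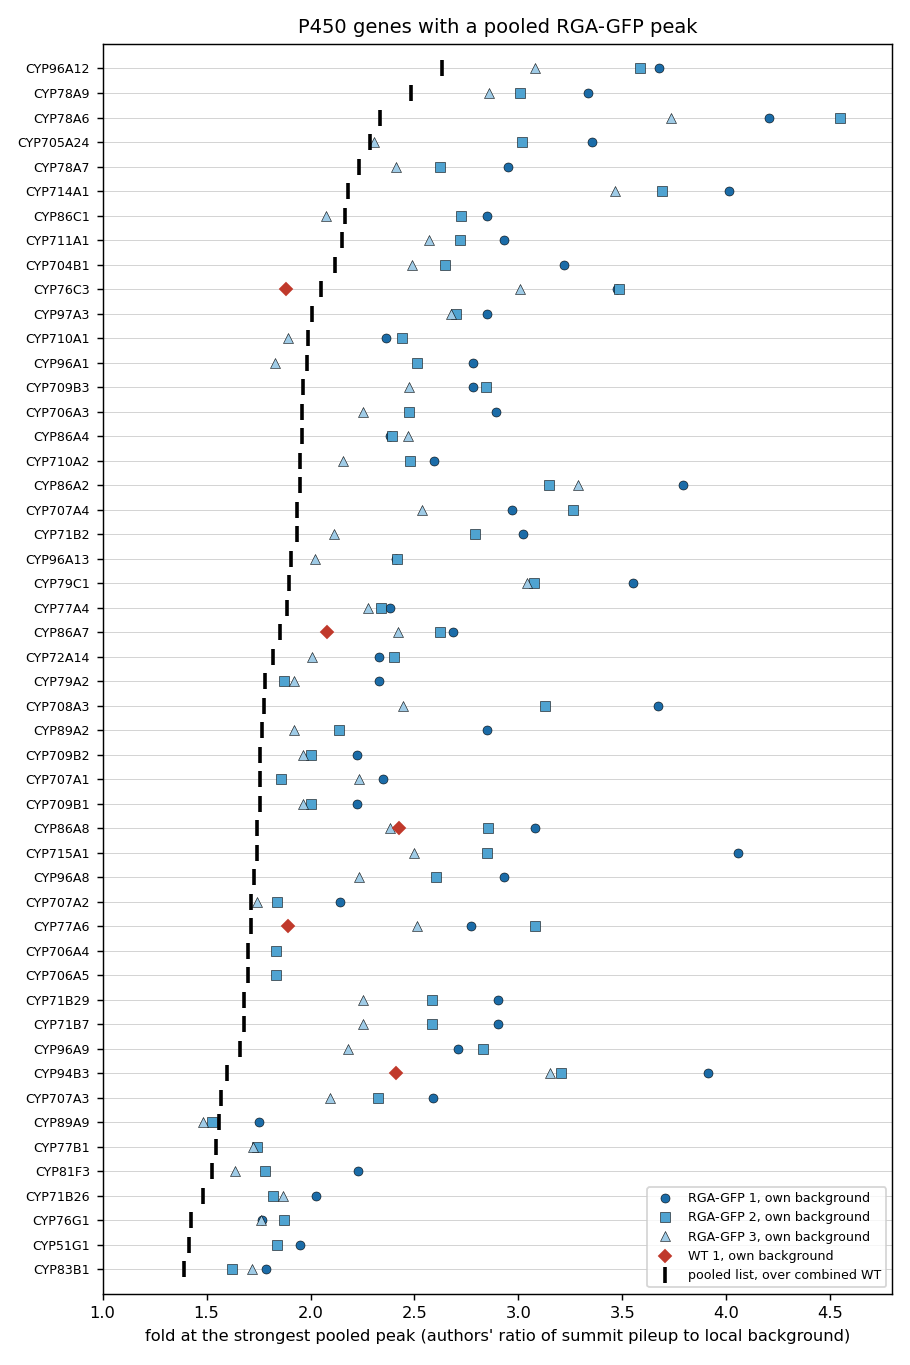
Fold (horizontal axis) at the strongest pooled peak of each of the 50 P450 genes with one, ordered by pooled fold; circles, squares and triangles are RGA-GFP 1, 2 and 3, red diamonds WT 1, and black bars the pooled list. The pooled fold runs from 2.63 at CYP96A12 to 1.39 at CYP83B1, and most replicate folds, which are taken over each library's own background, lie above it.

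Genes for the surface lipids cutin, suberin and wax and for the pollen wall polymer sporopollenin formed the largest list, 21 genes, of which 13 were among the 88 and 9 (42.9%) had a pooled peak. Over all protein-coding genes, 46.1% were in the table and 29.7% had a pooled peak. The median pooled fold of these 9 was 1.89. Fatty acid ω-hydroxylases of the CYP86A subfamily supply cutin monomers, and all except the root suberin enzyme CYP86A1 had a pooled peak. CYP86A2 (ATT1) had 3.79, 3.15 and 3.29 in RGA-GFP 1, 2 and 3 and a pooled fold of 1.95. Petal cutin is made with CYP86A4 and CYP77A6. CYP86A4 had 2.38, 2.39 and 2.47 and a pooled fold of 1.96, over the longest peak of all 50 genes, 2312 bp, which was also in the window of the ferric reductase gene FRO1. Of the strongest pooled peaks found in all 3 lists, it was the only one where RGA-GFP 3 was the highest. CYP77A6 had 2.77, 3.08 and 2.51 and a pooled fold of 1.71, at a peak also in the window of APEM9. The epoxygenase CYP77A4 had 2.38, 2.34 and 2.28 and a pooled fold of 1.89.

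CYP86C1, a relative of the ω-hydroxylases, had 2.85, 2.72 and 2.08 in the RGA-GFP lists and a pooled fold of 2.16. The pollen wall enzyme CYP704B1 had 3.22, 2.64 and 2.49 and a pooled fold of 2.12, at chr1:26122693-26123893. That peak was also in the window of its neighbour NAP, a NAC transcription factor gene. CYP703A2, which acts with CYP704B1 in the pollen wall, had 1.55 and 1.87 in RGA-GFP 2 and 3 and none in RGA-GFP 1. The authors' deposited table gives it no pooled peak, although the pooled list has one of 1.52 in its window. No peak of a single RGA-GFP list overlapped that one. The RGA-GFP 3 peak was also in the windows of AT1G01260 and AT1G01270. The wax enzyme CYP96A15 (MAH1) was not among the 88.

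WT peaks were common in this list: they lay in the windows of 4 of its 13 genes, CYP86A2, CYP86A7, CYP86A8 and CYP77A6. Over all 88 P450 genes a WT peak lay in 8 windows (9.09%), against 8.29% of all genes in the table. Among the 50 genes with a pooled peak, 7 (14%) had a WT peak in the window, against 9.87% of all genes with a pooled peak. On a pooled peak itself, a WT peak lay at 5 of the 50 genes (10%), against 8.33% of genes with a pooled peak. Those 5 were CYP76C3, CYP77A6, CYP86A7, CYP86A8 and CYP94B3, and in each the overlapping peak was from WT 1.

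The WT peak at CYP86A8 (LACERATA), a cutin ω-hydroxylase of epidermal tissue, stood 1 bp from the pooled summit. The RGA-GFP lists had folds of 3.08, 2.85 and 2.38 there, against 2.43 in WT 1. Scaled to 1000000 tags kept, the summit pileups were 19.7, 18.0 and 14.1 in the RGA-GFP libraries and 9.69 in WT 1. WT 1 was thus lower in pileup than every RGA-GFP library, while its fold was between those of RGA-GFP 2 and 3. CYP86A8 was also the only one of the 88 with 3 pooled peaks, of 1.74, 1.51 and 1.51.

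CYP86A7, a further ω-hydroxylase gene, had 2.69, 2.62 and 2.42 in the RGA-GFP lists, against 2.08 in WT 1, and a pooled fold of 1.86. The scaled pileups were 11.3, 10.8 and 9.67 in the RGA-GFP libraries and 7.09 in WT 1. At CYP77A6 they were 10.24, 11.7 and 9.44 in the RGA-GFP libraries and 6.39 in WT 1, where the fold was 1.89. In both genes every RGA-GFP library had a higher summit pileup than WT 1. The WT 1 summit lay 202 bp from the pooled summit at CYP86A7 and 153 bp at CYP77A6. These pileups are thus not taken at a single position. At CYP86A2 the WT 1 peak, of 1.95, lay 845 bp from the pooled summit and not on the pooled peak. The RGA-GFP list peaks of this gene, of 3.79, 3.15 and 3.29, did overlap that WT 1 peak.

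Jasmonoyl-isoleucine, the active jasmonate, is oxidised by CYP94B3 and further by CYP94C1, and both windows held WT peaks. At the pooled peak of CYP94B3 the RGA-GFP lists had 3.91, 3.21 and 3.15, against 2.41 in WT 1. The scaled pileups were 13.6, 10.8 and 10.6 in the RGA-GFP libraries and 8.39 in WT 1. Its mean replicate fold of 3.42 ± 0.42 (SD, n = 3) was the fourth highest among the 88, but its pooled fold was only 1.60. Further along the window, a WT 3 peak had a scaled pileup of 9.50, above the 7.44, 7.45 and 7.05 of the RGA-GFP libraries there. A second WT 1 peak overlapped that WT 3 peak, with a fold of 2.14 and a scaled pileup of 7.49. RGA-GFP peaks on this WT 1 peak had 7.72, 10.8 and 7.05, and the RGA-GFP 2 peak reached to the pooled peak. No pooled peak was called at these WT peaks.

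CYP94C1 had 1.83, 1.57 and 1.58 in the RGA-GFP lists, against 2.01 in WT 1, and no pooled peak. Its scaled pileups were 6.15, 5.29 and 5.31 in the RGA-GFP libraries and 7.19 in WT 1, so the WT library was the highest. WT 2 had no peak in any of the 88 windows.

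**Figure D4:**
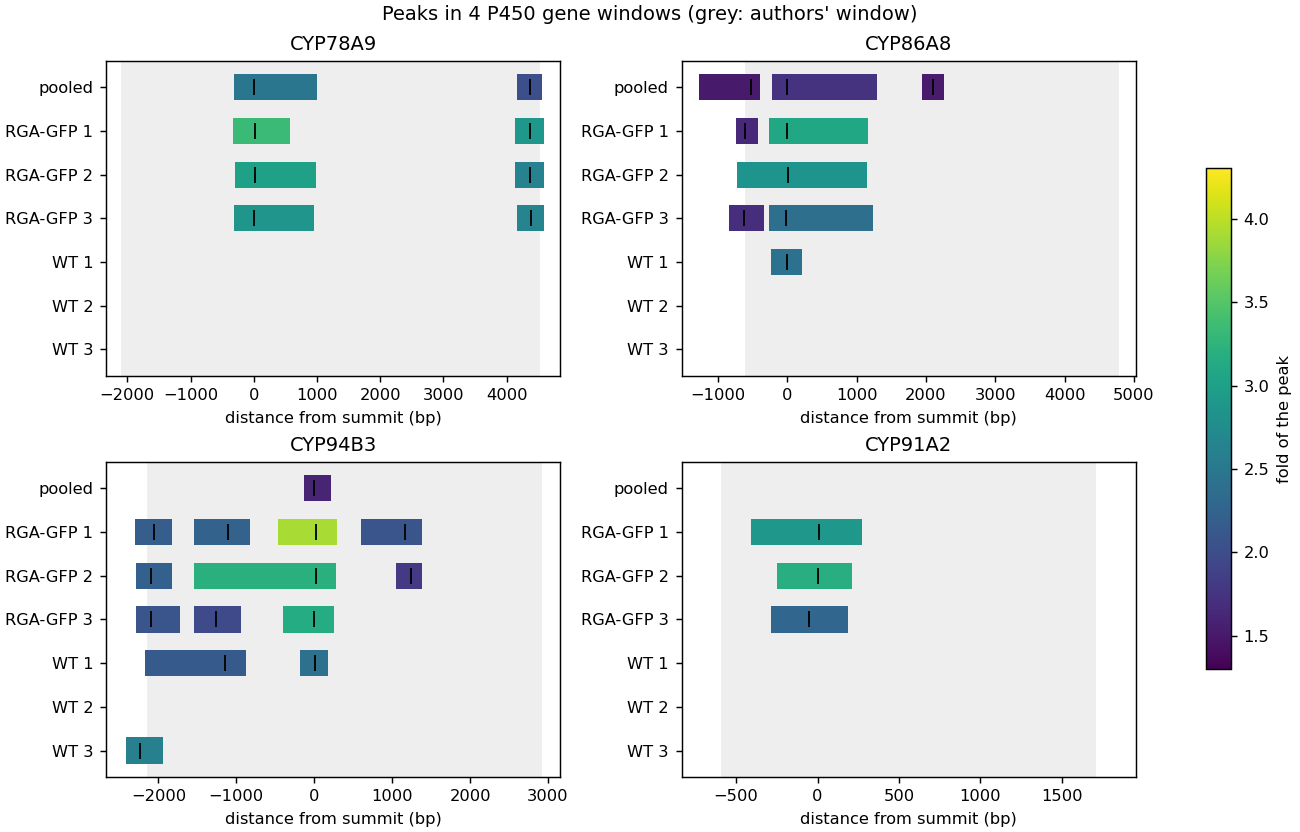
Peaks in the windows of 4 P450 genes, by list (rows) and distance in bp from the summit of the strongest pooled peak, or from the RGA-GFP 2 summit at CYP91A2 (horizontal axis); colour gives the fold, black marks the summits, and grey the authors' window. CYP78A9 and CYP91A2 have RGA-GFP peaks and no WT peak, and CYP91A2 has no pooled peak. A WT 1 summit lies 1 bp from the pooled summit at CYP86A8 and 16 bp from it at CYP94B3. CYP94B3 also has a second WT 1 peak and a WT 3 peak away from the pooled peak.

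Among the 5 sterol genes, 3 (60%) had a pooled peak, against 29.7% of all protein-coding genes. The C-22 sterol desaturase genes CYP710A1 and CYP710A2, which make stigmasterol, are neighbours on chromosome 2 with separate pooled peaks. CYP710A1 had 2.36, 2.44 and 1.89 in RGA-GFP 1, 2 and 3 and a pooled fold of 1.99. CYP710A2 had 2.59, 2.48 and 2.16 and a pooled fold of 1.95. Its second pooled peak, of 1.76, was the stronger in every RGA-GFP list, with 2.73, 2.64 and 2.49. Both peaks were also in the window of AT2G34480. CYP51G1, the 14α-demethylase of the main sterol pathway, was among the lowest, with 1.95 and 1.84 in RGA-GFP 1 and 2, none in RGA-GFP 3, and a pooled fold of 1.42.

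Of the carotenoid hydroxylases that lead to lutein, CYP97A3 (LUT5) had 2.85, 2.70 and 2.68 and a pooled fold of 2.00. That peak was also in the window of AT1G31790. CYP97C1 (LUT1) had 1.71 and 2.01 in RGA-GFP 1 and 2 and no pooled peak, and CYP97B3 was not among the 88.

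Glucosinolates are sulfur-rich defence compounds, and 4 of 13 genes in their list (30.8%) had a pooled peak, near the 29.7% of all protein-coding genes. CYP79C1, of the family that turns amino acids into oximes, was the highest, with 3.55, 3.08 and 3.04 in the RGA-GFP lists and a pooled fold of 1.90. The peak was also in the window of the transporter gene OCT2. CYP79A2, which starts benzylglucosinolate synthesis, had 2.33, 1.87 and 1.92 and a pooled fold of 1.78. CYP83B1 (SUR2), which commits indole oxime to glucosinolates, had the lowest pooled fold of the 50, 1.39, with 1.79, 1.62 and 1.72 in the RGA-GFP lists. The summit of its peak lay 301 bp outside its window, and a second pooled peak of 1.37 had 2.15, 2.13 and 2.14 in those lists. The aliphatic pathway genes CYP79F1, CYP79F2 and CYP83A1 were not among the 88.

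Terpenoid genes had a pooled peak at 2 of 14 (14.3%), against 29.7% of all protein-coding genes. Both encode enzymes that oxidise flower volatiles. CYP76C3, which oxidises linalool, had 3.47, 3.48 and 3.01 in the RGA-GFP lists, against 1.88 in WT 1, and a pooled fold of 2.05. The scaled pileups were 18.5, 18.2 and 14.2 in the RGA-GFP libraries and 6.59 in WT 1. The peak was also in the window of AT2G45590, a protein kinase gene. CYP706A3, which oxidises floral terpenes, had 2.89, 2.47 and 2.25, no WT peak, and a pooled fold of 1.96, at a peak also in the window of AT5G44630, a terpenoid cyclase gene. The homoterpene synthase CYP82G1 had 2.35, 2.68 and 1.78 without a pooled peak. The thalianol and marneral cluster genes in the list, CYP708A2, CYP705A5, CYP705A12 and CYP71A16, were not among the 88.

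None of the 3 genes among the 88 from the lists of phenylpropanoids and of camalexin and related defence compounds had a pooled peak, against 64.3% of all genes in the table. The phenylpropanoid genes C4H and FAH1, which the table describes without the phrase, had pooled folds of 1.50 and 1.91. CYP98A3, a hydroxylase of lignin monomer synthesis, had a peak in RGA-GFP 2 only, of 1.63. CYP82C2 had 2.03 and 2.52 in RGA-GFP 1 and 3. The camalexin genes CYP71A12, CYP71A13 and CYP71B15 (PAD3) were not among the 88.

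A further 43 of the 88 genes were in none of the 10 role lists, and 21 of these had a pooled peak, compared with 64.3% of all genes in the table. The highest pooled fold of the 88 was at one of them, CYP96A12, with 3.68, 3.59 and 3.08 in RGA-GFP 1, 2 and 3, a mean of 3.45 ± 0.32 (SD, n = 3) and a pooled fold of 2.63. It ranked 75 among the 8629 genes with a pooled peak. The peak, at chr4:18370592-18371396, was also in the window of AT4G39520, a GTP-binding protein gene, and its summit lay 26 bp outside the window of CYP96A12. The other CYP96A genes with a pooled peak were lower, CYP96A1 with 1.98, CYP96A13 with 1.91, CYP96A8 with 1.73 and CYP96A9 with 1.66.

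CYP705A24 had 3.35, 3.02 and 2.31 in the RGA-GFP lists and a pooled fold of 2.29, the only CYP705A gene with a pooled peak. CYP709B3 had 2.78, 2.84 and 2.48 and a pooled fold of 1.96. CYP715A1 had 4.06, 2.85 and 2.50, the widest spread of the replicate folds, with a mean of 3.13 ± 0.82 (SD, n = 3) and a pooled fold of 1.74. CYP89A9, which acts in chlorophyll breakdown, had 1.75, 1.52 and 1.48 and a pooled fold of 1.56, the lowest mean replicate fold of the 46 genes.

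At the strongest pooled peaks, the 3 RGA-GFP libraries followed the same order as elsewhere in the genome. At the 44 distinct sites with a peak in all 3 lists, RGA-GFP 1 was the highest at 33, RGA-GFP 2 at 10 and RGA-GFP 3 at 1. RGA-GFP 3 was the lowest at 38. Over the 4871 such sites of all genes, RGA-GFP 3 was the lowest at 77.8% and RGA-GFP 1 the highest at 57.9%. The median folds were 2.85, 2.62 and 2.26 at the P450 sites and 2.46, 2.41 and 2.13 over all sites. The SD of the 3 replicate folds was a median of 10.19% of their mean, with a range of 1.99% at CYP86A4 to 26.1% at CYP715A1, against a median of 9.26% over all genes. Replicate summits lay a median of 7.5 bp from the pooled summit (144 summits, at most 540 bp), against 19 bp over all genes.

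**Figure D5:**
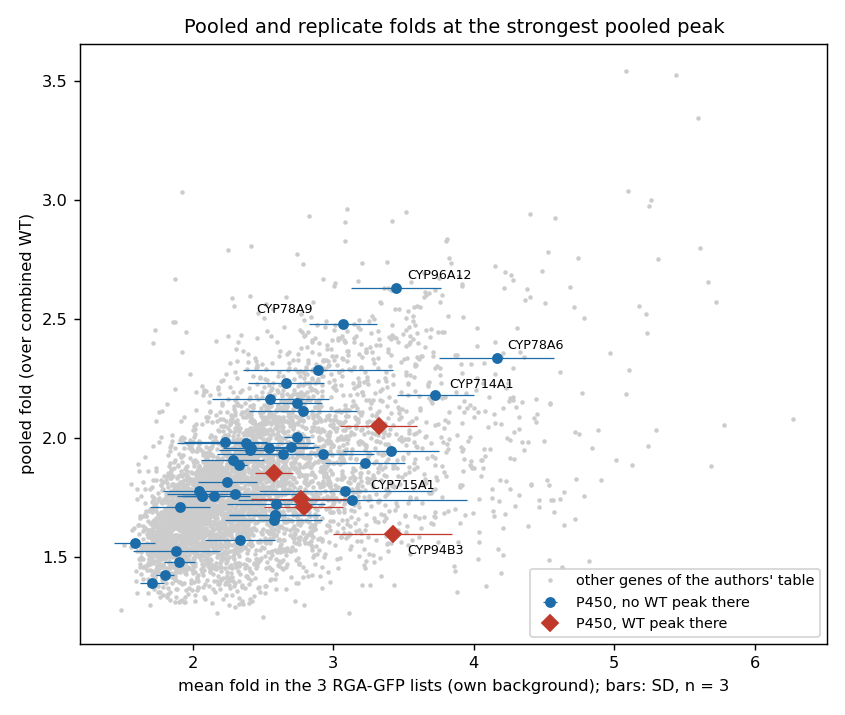
Pooled fold (vertical axis) against the mean fold in the 3 RGA-GFP lists (horizontal axis; bars are the SD, n = 3) at the strongest pooled peak, for the 46 P450 genes with a peak in all 3 lists and, in grey, other genes of the table. CYP96A12 and CYP78A6 lead on the vertical and the horizontal axis, and CYP94B3, with a WT peak there (red diamond), has a mean replicate fold of 3.42 and a pooled fold of 1.60.

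Several P450 peaks could not be given to a single gene. The strongest pooled peak was also in the window of another gene of the table for 25 of the 50 genes (50%), against 71.6% of all genes with a pooled peak. The 50 genes had 47 distinct strongest peaks, because 3 pairs of tandem neighbours shared one. These were CYP709B1 and CYP709B2 with a fold of 1.76, CYP71B29 and CYP71B7 with 1.68, and CYP706A4 and CYP706A5 with 1.70. The CYP706A4 and CYP706A5 peak was found in RGA-GFP 2 only, with a fold of 1.84. The summit lay outside the window for 3 of the 50 genes (6%), against 11.5% of all genes. At least 2 pooled peaks were in the window of 15 of the 50 (30%), against 27.5%. The windows of the 88 genes were long, with a median of 5033 bp against 4182.5 bp over the table. How reads that match several tandem copies were placed is not given in the sources used here.

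Among the 38 P450 genes without a pooled peak, 6 had peaks in all 3 RGA-GFP lists: CYP78A5, CYP94C1, CYP82G1, CYP91A2, CYP84A4 and CYP716A1. These are 6.82% of the 88, against 9.38% of all genes in the table. CYP91A2, also called CYP81F1 and an enzyme of indole glucosinolate modification, had the strongest peaks, 2.90, 3.19 and 2.29, with no WT peak in the window. CYP84A4 had 2.33, 2.34 and 2.02, and CYP716A1, a triterpene oxidase, had 1.73, 1.78 and 1.76. The RGA-GFP 2 peak was also in the window of AT4G37420 for CYP91A2, of ZAT6 for CYP84A4 and of CCB3 for CYP716A1. Each of the 3 lists held peaks of all 6 genes, yet the pooled list against WT did not.

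Some genes without a pooled peak shared a replicate peak with each other. A replicate peak of 15 of the 38 was also in the window of another such P450 gene. The matching share over all genes without a pooled peak was not computed, so 15 cannot be called many or few. Of all genes with a pooled peak, 71.6% had the strongest one also in another window. CYP705A20 and CYP705A21 shared peaks of 1.99 and 1.93 in RGA-GFP 1 and 2, CYP81D4 and CYP81D5 shared one of 2.17 in RGA-GFP 1, and CYP71B31 and CYP71B32 shared peaks of 1.69 and 1.80 in RGA-GFP 2 and 3. The 38 genes thus rest on 32 distinct strongest peaks. Genes entered the table by a replicate −log10 q of at least 3, and those closest to that limit were CYP81D8 with a best −log10 q of 3.48, CYP98A3 with 3.69 and CYP71B19 with 4.54. P450 genes just outside the limit have no window in the table, so no values are given for them.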

How the data were processed

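Peaks of 3 RGA-GFP and 3 WT ChIP-seq libraries were used as deposited. Per the submitters' processing notes, Bowtie2, SAMtools and MACS2 2.0.10 were used on TAIR10. The file headers give MACS 2.0.10.20130915, a tag extension of 300 bp, a q cutoff of 0.05 and 1 tag kept per position. Per the file headers, single libraries were called without a control over a background of 10000 bp, and the pooled list set combined RGA-GFP against combined WT replicates. The deposited fold is a ratio of summit pileup (the authors' signal of extended tags) to local background, and significance is the deposited −log10 q. Per the file headers, the authors' table gives the number of replicate lists (another deposited value) with a peak at −log10 q of 3 or more and 50 bp or more of overlap. Overlaps of at least 50 bp were recomputed in Python 3.11.15 with pandas 2.3.3, on an overlap routine tested on simulated intervals. The recomputed replicate count equalled the table's for 86 of 88 genes, and the fold, within 1e-05, for 87 of 88. All 88 genes matched RefSeq (GCF_000001735.4, TAIR10.1), used for names and biotypes only.

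The genes and role lists were chosen with earlier results of these data known. Named genes are the 12 with the highest pooled fold among those in all 3 RGA-GFP lists without a WT peak on the pooled peak, the 5 with the highest mean replicate fold, genes with a WT peak on the pooled peak, role-list genes with a pooled peak, genes with 2 or more pooled peaks and the 3 nearest the limit. Others, chosen after their values were seen, are those without a pooled peak, the shared tandem peaks and the extremes of a range.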

Additional observations from a re-analysis of the deposited data

How the results depend on the processing

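The number of P450 genes with a pooled peak, 50, was 23 when a pooled −log10 q of at least 10 was required, and 46 to 51 under the other alternatives. Pooled peaks found in both remaining lists numbered 46 to 47 without each RGA-GFP replicate in turn. The number in all 3 RGA-GFP lists, 51, was 36 at a replicate −log10 q of at least 10, and 55 to 61 without each RGA-GFP replicate. The number with a WT peak in the window, 8, was 5 when the WT peak had to overlap a pooled peak. Without each WT replicate it ranged from 2 to 8, and the lowest value, 2, came from leaving out WT 1, the deepest WT library. The median pooled fold of 1.80 ranged from 1.78 to 1.87. Alternatives that counted each distinct peak once, counted only genes whose pooled peak was in all 3 lists, recomputed the replicate count or set a minimum on WT peaks were chosen after seeing the data. WT 3, with 3999159 tags, limits what the WT lists can show. No paired analysis was possible because the pooled comparison merged the replicates of each group, and the counts come from no test. The labels also do not tie a replicate number to a shared batch.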

Other observations

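P450 genes outside the selection gave further values. Of the 10 genes of brassinosteroid and gibberellin metabolism that were left out, 6 were in the authors' table, against 46.1% of all protein-coding genes. All 6 had a pooled peak, against 64.3% of all genes in the table, and their median fold was 1.82. CYP72B1 (BAS1), which inactivates brassinosteroids, had 5.81, 5.23 and 4.65 in RGA-GFP 1, 2 and 3 and a pooled fold of 2.44. Its mean of 5.23 ± 0.58 (SD, n = 3) was above that of every one of the 88 genes. CYP90C1 (ROT3), a brassinosteroid hydroxylase, had 5.44, 5.45 and 4.49 in the RGA-GFP lists, against 2.62 in WT 1 and 2.96 in WT 3, and a pooled fold of 1.89. CYP90D1 had a pooled fold of 2.08, the gibberellin gene KAO2 had 1.76, CYP90B1 (DWF4) had 1.70 and CYP90A1 (CPD) had 1.55.

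Another 4 P450 genes were in the table under descriptions without the phrase. All 4 had a pooled peak, against 64.3% of all genes in the table. At its strongest pooled peak, HPL1, a hydroperoxide lyase of green leaf volatile synthesis, had 2.93, 2.88 and 2.59 in the RGA-GFP lists. The pooled fold there was 2.44. The HPL1 window held 3 pooled peaks, and the strongest RGA-GFP list peaks in it, 4.23, 4.20 and 3.32, lay elsewhere. The lignin genes FAH1 and C4H had pooled folds of 1.91 and 1.50. AOS, the first committed enzyme of jasmonate synthesis, had 3.25, 3.34 and 2.59 in the RGA-GFP lists, against 2.01 in WT 1, and a pooled fold of 1.79.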
